A study of Mus musculus with 108 samples.

Results

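The 6 clock output genes Dbp, Tef, Hlf, Nfil3, Bhlhe40 and Bhlhe41 were followed over the day in the livers, kidneys and white fat (WAT, white adipose tissue) of mice labelled Bmal1-iKO or Bmal1-flox. They were taken by gene symbol, which found 6 rows among the 55416 genes of the count table. All animals were male C57BL/J mice of 8 to 12 weeks, kept in 12 h of light and 12 h of darkness with food and water always present. The tested genotype was Bmal1-iKO (iKO below) and its control was Bmal1-flox (flox below, WT in the sample titles), so both names refer to alleles of Bmal1, the clock activator whose gene symbol is Arntl. The labels do not spell out iKO, and neither the Cre driver nor the cells that lost the gene are stated in the labels. The series title places the clock in the intestine and the response in liver metabolism, so the question for these tissues is whether their clock output changes. Tissue was taken at zeitgeber times (ZT, counted in hours from lights on) 2, 6, 10, 14, 18 and 22, with 3 libraries for each tissue, genotype and time, numbered 1 to 3 in the labels. That gives 36 libraries per tissue, 18 of each genotype. Total counts per library ran from 13875646 to 24414797. Whether every sample is a separate animal is not said in the labels, and p-values therefore speak only of the spread among the samples, some of which can be technical.

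DBP, TEF and HLF are the PAR bZIP transcription factors, which bind a DNA element called the D-box and activate genes from it, among them genes for drug and heme metabolism in liver. NFIL3 (E4BP4) binds the same element and represses, so activators and repressor that peak at opposite times of day drive D-box genes up and down. BHLHE40 and BHLHE41 (DEC1 and DEC2) are basic helix-loop-helix repressors that bind the E-box, the element on which BMAL1 and CLOCK act, and are themselves switched on through E-boxes.

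Promoter windows of 250 bases before to 50 bases after the start site were available from RefSeq (GRCm38.p6) for 5 of the 6 genes, with 2 windows for Tef. The windows were searched on both strands for the E-box, spelled CACGTG. They were also searched for a variant E-box that is spelled CACGTT, and for a D-box in 2 spellings. The first D-box spelling was TTATGTAA. The other D-box spelling was TTACGTAA. Each motif was counted separately, and a window with several is counted for each. The E-box was found in both Tef windows and in the Bhlhe41 window. These 3 windows are shown because they carry the element, with the E-box in capitals.
Tef start site 1, chr15:81802423-81802722, plus strand: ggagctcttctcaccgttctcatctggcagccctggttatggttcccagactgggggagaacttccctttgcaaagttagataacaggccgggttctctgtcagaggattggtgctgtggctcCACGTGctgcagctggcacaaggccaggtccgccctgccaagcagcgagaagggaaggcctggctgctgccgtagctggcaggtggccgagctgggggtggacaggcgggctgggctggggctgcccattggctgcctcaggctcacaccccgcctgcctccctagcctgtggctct
Tef start site 2, chr15:81811164-81811463, plus strand: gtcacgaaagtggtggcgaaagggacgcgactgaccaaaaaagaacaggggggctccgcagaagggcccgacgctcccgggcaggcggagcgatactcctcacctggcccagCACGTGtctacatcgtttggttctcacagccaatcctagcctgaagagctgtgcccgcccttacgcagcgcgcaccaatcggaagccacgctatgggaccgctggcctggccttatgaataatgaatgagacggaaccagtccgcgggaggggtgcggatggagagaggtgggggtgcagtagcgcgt
Bhlhe41, chr6:145865371-145865670, minus strand: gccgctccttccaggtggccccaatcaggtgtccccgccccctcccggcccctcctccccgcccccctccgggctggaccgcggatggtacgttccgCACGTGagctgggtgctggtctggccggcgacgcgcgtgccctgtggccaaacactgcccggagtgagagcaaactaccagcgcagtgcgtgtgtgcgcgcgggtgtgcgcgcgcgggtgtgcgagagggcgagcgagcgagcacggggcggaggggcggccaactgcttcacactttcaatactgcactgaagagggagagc
The first base of the E-box lies at -127 and -138 from the 2 Tef start sites and at -153 from that of Bhlhe41. None of the motifs was found in the Dbp, Hlf or Nfil3 window, which says only that these letters are not in 300 bases. Of 32851 windows of the same length, 7.15% hold the E-box, 4.68% the variant, 0.938% the first D-box spelling and 0.119% the other. A match is a description and not a measured binding site.

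In the GENCODE M21 annotation of GRCm38, Dbp lies on chromosome 7 from 45705088 to 45710203 (plus strand) and Tef on chromosome 15 from 81802421 to 81826863 (plus strand). Hlf lies on chromosome 11 from 90336536 to 90390895 (minus strand) and Nfil3 on chromosome 13 from 52967209 to 52981073 (minus strand). Both DEC genes lie on chromosome 6, Bhlhe40 from 108660629 to 108666925 (plus strand) and Bhlhe41 from 145858243 to 145865558 (minus strand). Of the 6, 4 overlap a gene on the opposite strand, namely Dbp with Sphk2 over 737 bases, Tef with Gm17597 over 193, Bhlhe40 with 0610040F04Rik over 306 and Bhlhe41 with Gm43909 over 1876. No label gives the strand setting of the counting, and reads of these overlaps cannot be told apart.

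Some libraries stood apart before any test. In liver, 11 combinations of genotype, time and number had a mean over 12 cell cycle genes of 2.74 to 3.58 log2 CPM (log2 of CPM, the library-scaled count), against -1.47 to 0.60 in the other 25. Of these, 9 were iKO, namely all numbers of ZT22 and numbers 1 and 2 of ZT6, ZT14 and ZT18, and 2 were flox, namely number 1 of ZT6 and of ZT22. Their macrophage marker mean was 6.53 to 7.78, against 1.86 to 5.77 in the others, and their hepatocyte marker mean was 10.7 to 12.9, against 12.8 to 13.6. Kidney libraries of the same combinations had interferon gene means of 4.72 to 7.29, against 1.91 to 4.74. Liver and kidney results are therefore also given without these 11, a set chosen with results of these data known. No iKO library of ZT22 is then left. Averaged differences without the 11 therefore lack ZT22 and are not averages of the same times as those of all libraries. WAT libraries of the same combinations overlapped the others, with interferon gene means of 2.78 to 7.15 (median 5.59), against 2.51 to 4.92 (median 3.23). For WAT no fit without the 11 was made. Xist was above 3 log2 CPM in all 3 tissues of iKO ZT18 1 and iKO ZT22 3, although the labels call all animals male. It stood at 8.17 (liver), 7.39 (kidney) and 8.58 (WAT) in the first and at 8.30, 8.06 and 3.91 in the second. Every other library had a negative value on that scale. The clock genes of iKO ZT6 2 ran against the flox profile of its labelled time in all 3 tissues. Tissue labels fitted the markers in liver and kidney, while the adipocyte marker mean of WAT libraries ranged from 3.75 to 11.7 log2 CPM. Arntl itself ran from 2.05 to 20.0 CPM (median 7.66) in iKO livers, against 2.18 to 24.2 (median 9.37) in flox livers, and it was not called in any tissue, so its level in these tissues does not check the genotype labels. On the log2 scale its iKO minus flox difference, averaged over the day, was -0.10 for liver (SE 0.18). It was 0.28 for kidney (SE 0.21) and -0.09 for WAT (SE 0.22).

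Levels per gene length (RPKM, on 1 scale for all libraries) ordered the genes differently in each tissue. In flox liver the mean level was highest for Tef at 29.8 ± 19.4 RPKM (SD, n = 18) and Nfil3 at 28.0 ± 17.5, followed by Bhlhe40 at 17.5 ± 7.36, Dbp at 15.9 ± 19.0, Hlf at 8.23 ± 2.33 and Bhlhe41 at 0.372 ± 0.416. Neighbours in this order lie within the larger SD of the pair, except Hlf and Bhlhe41. These SDs include the change over the day. In flox kidney the order was Tef (28.7 ± 12.9 RPKM), Hlf (14.2 ± 5.11), Bhlhe40 (13.6 ± 4.90), Dbp (13.3 ± 13.97), Nfil3 (7.21 ± 4.02) and Bhlhe41 (0.308 ± 0.158). In flox WAT Bhlhe40 (13.4 ± 7.76 RPKM), Tef (12.8 ± 5.75) and Dbp (10.6 ± 14.5) led, and Nfil3 (5.72 ± 5.04), Hlf (5.47 ± 2.62) and Bhlhe41 (4.75 ± 3.86) were close to each other. The SD of Dbp exceeded its mean in all 3 flox tissues, where the means run over 6 times of day.

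**Figure D1:**
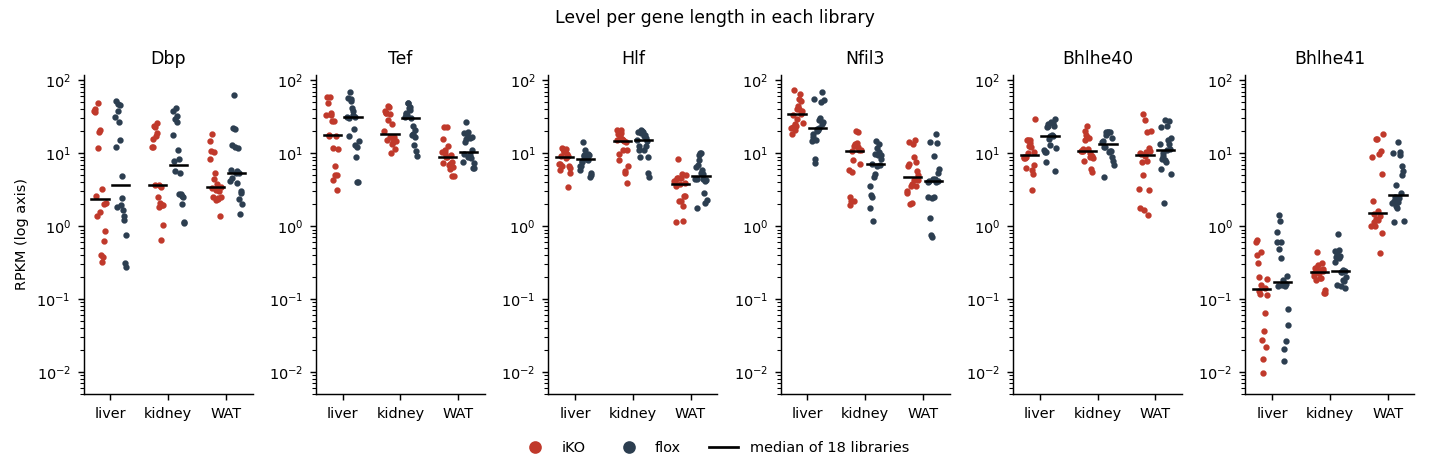
Level per gene length (RPKM, log axis) of the 6 genes in each library, by tissue, with iKO libraries left of flox libraries and a bar at the median of 18 libraries. Bhlhe41 stands at a flox median of 2.70 RPKM in WAT, against 0.172 in liver and 0.245 in kidney, and Nfil3 at 21.9 in liver, against 7.11 in kidney and 4.16 in WAT.

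Between flox tissues, 9 of 18 differences of the mean level over the day were called, meaning an adjusted p under 0.05 in edgeR's quasi-likelihood test with Benjamini-Hochberg adjustment over all 22789 genes. Differences between tissues are common, and 62.5% of all genes were called between liver and kidney, 74.2% between liver and WAT and 63.5% between kidney and WAT. Bhlhe41 had the largest differences of the 6 genes, -4.25 on the log2 scale for liver minus WAT (SE 0.37, adjusted p = 1.06e-15) and -3.98 for kidney minus WAT (SE 0.35, adjusted p = 7.67e-15). Nfil3 was higher in liver, by 2.04 over kidney (SE 0.27, adjusted p = 1.6e-09) and by 2.36 over WAT (SE 0.27, adjusted p = 1.7e-11). Hlf was highest in kidney, with liver minus kidney at -0.75 (SE 0.16, adjusted p = 5e-05), kidney minus WAT at 1.38 (SE 0.16, adjusted p = 3.18e-11) and liver minus WAT at 0.63 (SE 0.16, adjusted p = 0.000468). Tef was higher in liver and in kidney than in WAT, by 0.99 (SE 0.20, adjusted p = 1.01e-05) and 1.09 (SE 0.20, adjusted p = 2.83e-06). Dbp and Bhlhe40 had no called difference between tissues, with Dbp at -0.40 for liver minus kidney (SE 0.34) and Bhlhe40 at 0.38 (SE 0.26).

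Dbp, the PAR bZIP factor with the widest daily swing here, was high early in the day and low at night in both genotypes. In liver at ZT2 it stood at 77.1, 74.6 and 84.6 CPM in iKO, against 63.0, 105 and 24.01 in flox. At ZT6 the libraries of both genotypes split, with 4.82, 2.60 and 103 CPM in iKO and 3.46, 77.5 and 93.1 in flox. The 3 low libraries at ZT6 (iKO 1 and 2 and flox 1) are all among the 11 with high cell cycle genes, and the 3 high ones are not. At ZT10 Dbp had 23.5, 39.1 and 41.5 CPM in iKO livers and 54.7, 92.8 and 30.4 in flox livers. By ZT14 the values were 3.04, 0.782 and 6.43 in iKO and 3.99, 4.84 and 9.69 in flox, and at ZT18 they were 0.632, 0.720 and 4.05 in iKO and 2.37 to 3.31 in flox. At ZT22 iKO livers had 1.23, 1.67 and 3.98 CPM, against 0.579, 0.526 and 1.52 in flox livers. The genotypes overlapped at every time in liver.

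A 24 h cosine fitted to liver Dbp gave an amplitude (mean to peak, log2) of 3.07 in iKO (SE 0.49) with a peak at 5.53 h (SE 0.60), and of 2.99 in flox (SE 0.49) with a peak at 6.43 h (SE 0.61). The fitted peak-to-trough ratio was 70.2 in iKO and 63.3 in flox. Both rhythms were called (adjusted p = 0.0497 in iKO and 0.0175 in flox, edgeR). The iKO call is marginal: it held in 7 of 36 fits that left out 1 library, with adjusted p from 0.00891 to 0.168, and was lost without the 11 libraries. In kidney Dbp had an amplitude of 2.05 in iKO (SE 0.30, peak at 6.69 h, adjusted p = 0.00403) and of 2.15 in flox (SE 0.30, peak at 6.72 h, adjusted p = 0.00199). Kidney Dbp also split at ZT6, with 79.7, 12.4 and 77.8 CPM in iKO and 19.5, 99.4 and 142 in flox, but here iKO 1 was high. In WAT the amplitude was 1.13 in iKO (SE 0.30) and 1.68 in flox (SE 0.30) and neither was called (adjusted p = 1 and 0.102). Averaged over the day, the iKO minus flox difference of Dbp was -0.21 for liver (SE 0.41) with 9 of 18 iKO libraries below the flox mean of their time. It was -0.46 for kidney (SE 0.27) and -0.63 for WAT (SE 0.30), with 12 of 18 below in each, and none was called. The liver difference turned to 0.07 without the 11 libraries (adjusted p = 0.952), and the kidney one was then -0.31. The liver interval over all libraries, -1.06 to 0.64, leaves room for a change of up to about a factor of 2 in the direction of lower iKO levels.

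**Figure D2:**
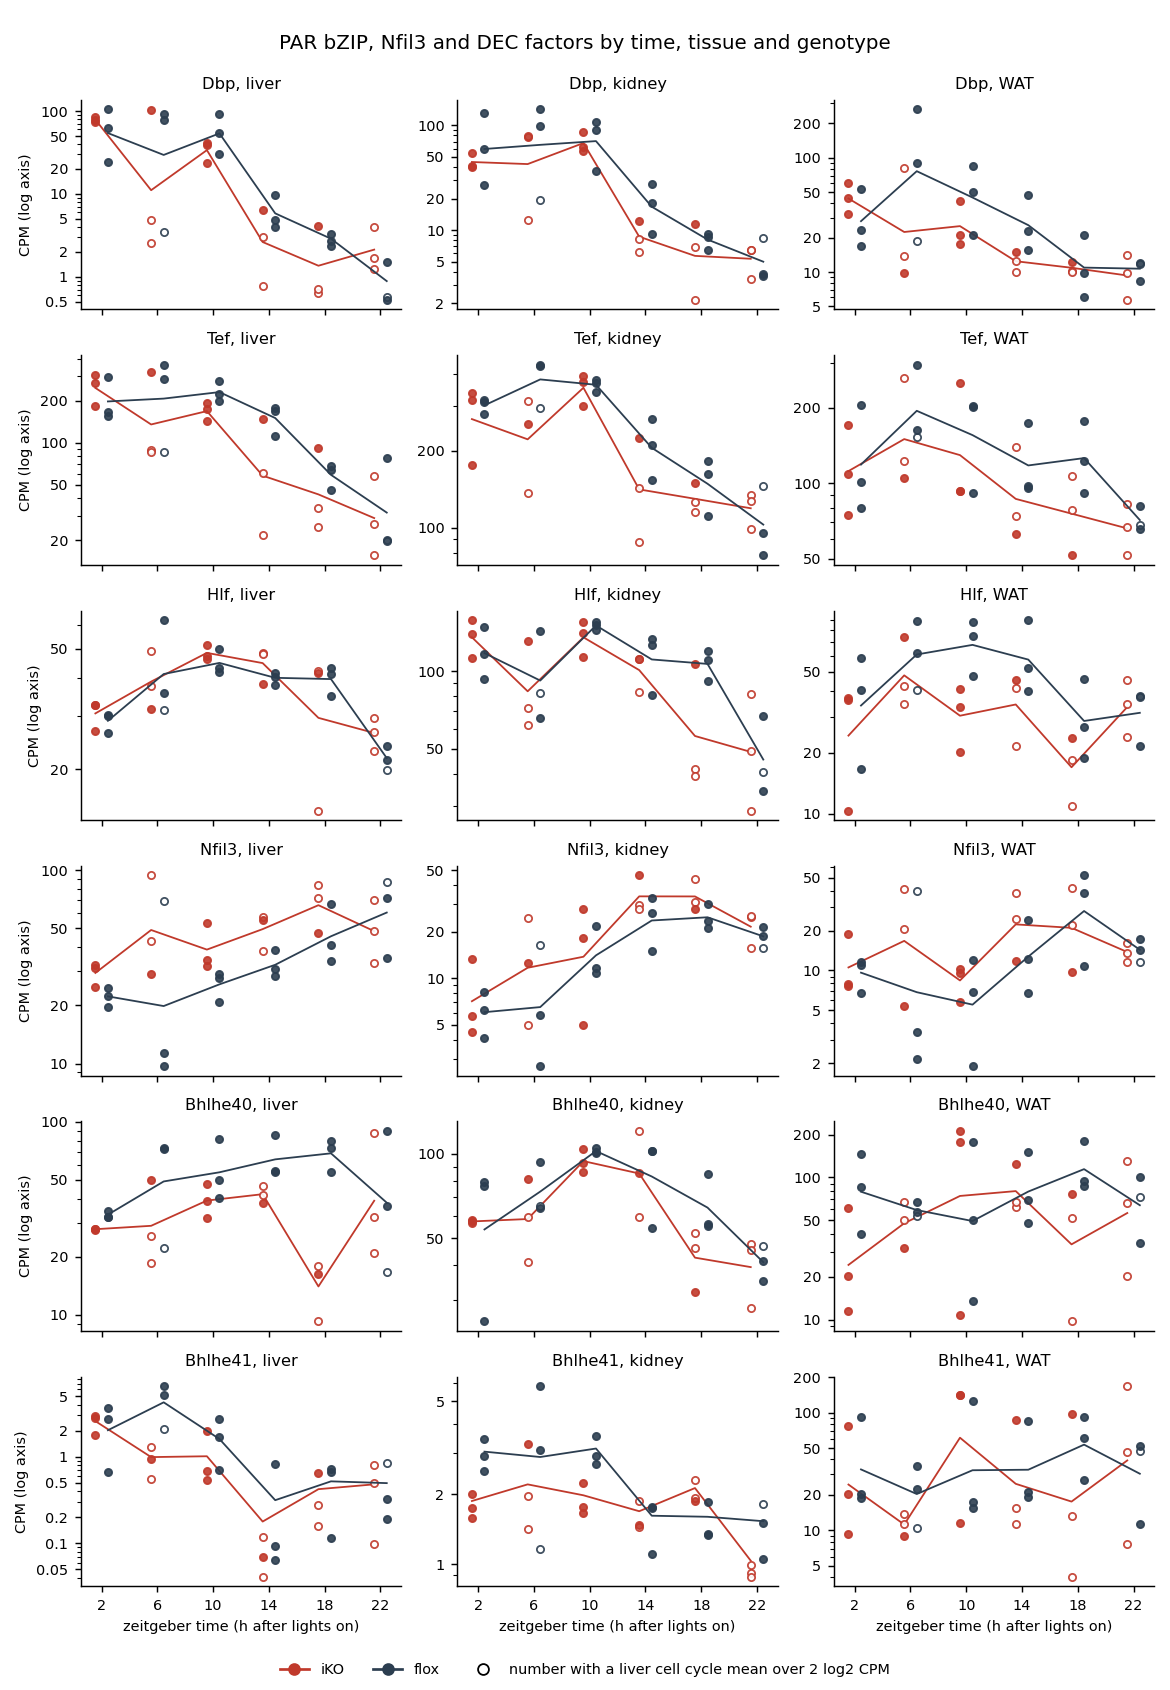
Level of each gene (CPM, log axis) against zeitgeber time in liver, kidney and WAT, with iKO libraries drawn left of flox libraries at each time. Each point is 1 library, lines join the means of log2 CPM over 3 libraries, and open points are the 11 combinations whose liver cell cycle mean was over 2 log2 CPM. Liver Bhlhe40 at ZT18 shows 9.26 to 17.9 CPM in iKO and 55.1 to 80.0 in flox.

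Tef, another PAR bZIP activator, ran with Dbp at a smaller amplitude. Liver Tef ran from 15.6 to 324 CPM in iKO (median 90.0) and from 19.9 to 363 in flox (median 162). Its liver amplitude was 1.28 in iKO (SE 0.29, peak at 6.15 h) and 1.31 in flox (SE 0.29, peak at 7.70 h), and neither rhythm was called (adjusted p = 0.142 and 0.0816). In kidney both were called, with an amplitude of 0.74 in iKO (SE 0.14, peak at 7.05 h, adjusted p = 0.0138) and of 0.89 in flox (SE 0.14, peak at 7.49 h, adjusted p = 0.0034). The fitted Tef peak lay 0.36 h after that of Dbp in iKO kidney (SE 0.93) and 0.77 h after it in flox kidney (SE 0.82), which is within the error. At ZT10 the 3 iKO livers, at 144 to 192 CPM, lay below the 3 flox livers, at 198 to 277, as did 10.4% of all genes at that time. The averaged difference was -0.37 for liver (SE 0.26, adjusted p = 0.381). It was 0.07 in the fit without the 11 libraries, which also has no ZT22, and neither value settles its sign in liver. With all libraries it was -0.23 for kidney (SE 0.12, adjusted p = 0.586) and -0.31 for WAT (SE 0.19, adjusted p = 1). The flox mean exceeded the iKO mean at 5 of 6 times in liver and in kidney and at 6 of 6 in WAT. Over the 36 liver libraries the macrophage marker mean correlated with Tef at r = -0.71 and with Dbp at r = -0.63. The part of cell composition in these levels was not tested.

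Hlf, the third PAR bZIP factor, had the smallest liver swing of the 3. Its liver amplitude was 0.44 in iKO (SE 0.11, peak at 10.7 h) and 0.45 in flox (SE 0.11, peak at 10.95 h). The liver peak lay 5.20 h after that of Dbp in iKO (SE 1.13) and 4.52 h after it in flox (SE 1.11). Neither liver rhythm was called (adjusted p = 0.158 and 0.0955). Levels ran from 14.6 to 51.5 CPM in iKO livers (median 38.1) and from 19.8 to 62.3 in flox livers (median 36.9), and the averaged difference was 0.04 (SE 0.11, 95% interval -0.18 to 0.26). This interval is the narrowest of the 6 genes in liver, and without the 11 libraries the difference was -0.10 (adjusted p = 0.66). In kidney Hlf averaged 137 ± 23.2 CPM at ZT2 and 53.0 ± 26.6 at ZT22 in iKO, and 151 ± 4.97 at ZT10 and 47.3 ± 17.5 at ZT22 in flox (SD, n = 3 each). The cosine gave kidney amplitudes of 0.56 in iKO (SE 0.18, adjusted p = 0.174) and 0.47 in flox (SE 0.18, adjusted p = 0.254), not called. A fit with time as a factor called a change over the day in both (adjusted p = 0.0164 in iKO and 0.0464 in flox). Hlf was not alone in this, as that fit called more of all kidney genes than the cosine did in both genotypes. Its averaged kidney difference was -0.14, and 0.07 without the 11 libraries (adjusted p = 0.952), neither called. In kidney at ZT18 Hlf stood at 41.6, 39.3 and 107 CPM in iKO and 119.96, 91.7 and 111 in flox. The 2 low kidneys are iKO 1 and 2, both in the set of 11, and the difference was -0.78 (SE 0.36, adjusted p = 0.34). It was called in the fit without iKO ZT18 3 (-1.40, adjusted p = 0.0435). Over the 36 kidney libraries Hlf correlated with the means of tubule markers (r = 0.76), interferon genes (r = -0.75) and macrophage markers (r = -0.74). The part of tissue composition in its level was not tested. WAT Hlf at ZT10 had 41.0, 20.1 and 33.6 CPM in iKO and 74.8, 87.4 and 47.4 in flox, without overlap, as 5.82% of all genes had in that direction. Its WAT average was -0.56 (SE 0.20, unadjusted p = 0.0098, adjusted p = 1).

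Nfil3, the D-box repressor, ran opposite to Dbp. In liver at ZT2 it had 31.2, 24.8 and 32.5 CPM in iKO, against 19.7, 22.4 and 24.6 in flox. At ZT6 the values were 42.7, 93.8 and 29.2 in iKO and 69.4, 11.3 and 9.71 in flox. The libraries that were low in Dbp at ZT6 (iKO 1 and 2 and flox 1) were the high ones in Nfil3. At ZT10 iKO livers stood at 34.1, 31.8 and 53.5 CPM and flox livers at 20.8, 29.0 and 27.7, and at ZT14 at 38.3, 57.0 and 55.3 in iKO and 28.2, 38.8 and 30.8 in flox. ZT18 gave 72.0, 83.5 and 47.2 CPM in iKO and 41.0, 66.9 and 34.0 in flox, and ZT22 gave 69.6, 48.5 and 33.2 in iKO and 87.2, 34.9 and 71.6 in flox. All 3 iKO livers lay above all 3 flox livers at ZT2 and ZT10, as did 7.07% and 11.2% of all genes at those times.

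Over the day liver Nfil3 was 0.45 higher in iKO on the log2 scale (SE 0.21, unadjusted p = 0.0398, adjusted p = 0.182), with means of 48.8 ± 20.0 CPM in iKO and 37.1 ± 22.1 in flox (SD, n = 18 each). Of all 16582 genes tested in liver, 4079 had an unadjusted p under 0.05 for the averaged difference. For Nfil3 in liver 16 of 18 iKO libraries lay above the flox mean of their time. The difference was not called with all libraries, and it was called without the 11 libraries, at 0.64 (adjusted p = 0.00838), and without flox ZT6 1 alone, at 0.70 (adjusted p = 0.00488). Over the 36 fits that left out 1 liver library the adjusted p ran up to 0.317. The fit without the 11 has no ZT22, the 1 time at which the liver difference lay below 0 with all libraries (-0.36). Its 0.64 and the 0.45 of all libraries are therefore not averages of the same times. Kidney gave 0.41 (SE 0.23, adjusted p = 0.604) with 13 of 18 iKO libraries above, and WAT 0.22 (SE 0.34, adjusted p = 1) with 10 of 18. Liver Nfil3 correlated over the 36 libraries with the macrophage marker mean (r = 0.57) and with the hepatocyte marker mean (r = -0.55), and the part of cell composition in its level was not tested. The kidney rhythm was called in both genotypes, with an amplitude of 0.95 in iKO (SE 0.22, peak at 15.9 h, adjusted p = 0.0319) and of 1.02 in flox (SE 0.22, peak at 16.2 h, adjusted p = 0.0237). Leaving out 1 library kept the iKO call in 28 of 36 fits and the flox call in 33, and the flox call was lost with time as a factor (adjusted p = 0.0584). In liver the amplitude was 0.27 in iKO (SE 0.22, adjusted p = 0.819) and 0.58 in flox (SE 0.22, peak at 19.9 h, adjusted p = 0.294).

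The kidney peak of Nfil3 came 9.25 h after that of Dbp in iKO (SE 1.05) and 9.53 h after it in flox (SE 0.99). Across the 36 libraries of a tissue Dbp and Nfil3 correlated at r = -0.75 in liver, -0.71 in kidney and -0.64 in WAT, as a description of libraries that share times of day, depth and the set of 11. Dbp and Tef correlated at r = 0.91 in liver, 0.91 in kidney and 0.67 in WAT.

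**Figure D3:**
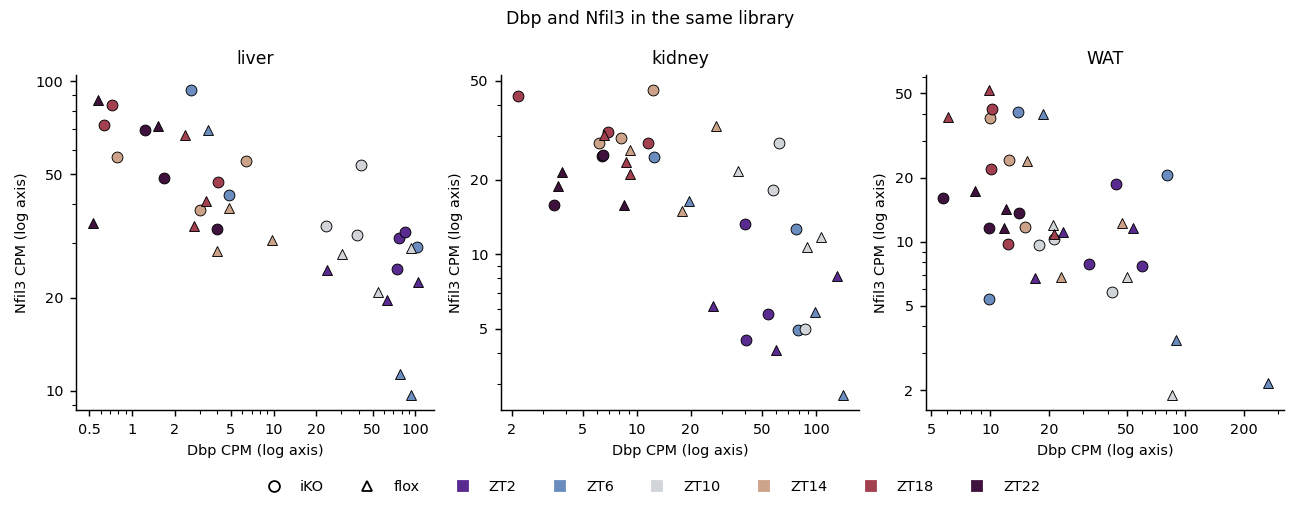
Nfil3 against Dbp in the same library (CPM, both axes log) in liver, kidney and WAT, with circles for iKO, triangles for flox and colour for zeitgeber time. Liver libraries of ZT18 and ZT22 sit at low Dbp and those of ZT2 and ZT10 at high Dbp, while ZT6 libraries fall at both ends, at 2.60 to 4.82 CPM of Dbp and at 77.5 to 103.

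Bhlhe40 (DEC1), an E-box repressor, was lower in iKO liver and was the only one of the 6 genes called for an averaged difference in any tissue. At ZT2 liver libraries had 27.4, 27.8 and 27.9 CPM in iKO, against 34.7, 32.2 and 32.0 in flox. At ZT6 they had 25.8, 18.6 and 50.0 in iKO and 22.3, 73.3 and 72.0 in flox. The low flox value at ZT6 is number 1, from the set of 11. At ZT10 the values were 31.9, 47.8 and 38.9 in iKO and 81.1, 50.2 and 40.2 in flox, and at ZT14 46.7, 41.9 and 38.1 in iKO and 54.9, 85.0 and 55.7 in flox. ZT18 showed the widest gap, with 17.9, 9.26 and 16.3 CPM in iKO and 55.1, 80.0 and 73.2 in flox. At ZT22 the genotypes overlapped, with 32.1, 21.1 and 87.0 in iKO and 16.6, 89.8 and 36.8 in flox. The 3 iKO livers lay below the 3 flox livers at ZT2, ZT14 and ZT18, as did 7.72%, 11% and 11.1% of all genes at those times.

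Averaged over the day, liver Bhlhe40 fell by 0.75 on the log2 scale (SE 0.20, 95% interval -1.17 to -0.34, adjusted p = 0.0418 in edgeR), with means of 33.7 ± 17.7 CPM in iKO and 54.7 ± 22.9 in flox (SD, n = 18 each). The iKO mean was lower at 5 of 6 times, and 16 of 18 iKO libraries lay below the flox mean of their time. In liver 438 of 16582 genes were called for this difference, which is 2.64%, with 1.09% higher and 1.56% lower in iKO, so 1 called gene of 6 stands beside that background. The call was kept in 7 of 36 fits that left out 1 library, in which the difference stayed between -0.89 and -0.61 and the adjusted p ran from 0.00707 to 0.081, and it was lost without iKO ZT6 2 (-0.71, adjusted p = 0.0699, a fit added after the data were seen). Without the 11 libraries the difference was -0.85. That fit has no ZT22, where the difference with all libraries was -0.03, so -0.85 and -0.75 are not averages of the same times. Fewer cells of a type and less RNA per cell cannot be told apart in bulk tissue. Liver Bhlhe40 correlated over 36 libraries with the hepatocyte marker mean (r = 0.54) and with the B cell marker mean (r = -0.69), and the part of these markers in the difference was not tested beyond the fit without the 11.

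At ZT18 the liver difference of Bhlhe40 was -2.26 (SE 0.49, 95% interval -3.27 to -1.25), with 14.5 ± 4.61 CPM in iKO and 69.4 ± 12.8 in flox (SD, n = 3 each). Its adjusted p was 0.0726 in edgeR, where 6 of all genes (0.0362%) were called at ZT18, and 0.00138 in DESeq2. Number 3, the iKO liver at ZT18 outside the set of 11, had 16.3 CPM, and without the 11 libraries, when it is the only iKO liver left at this time, the difference was -2.10 (adjusted p = 0.0416, with the spread of that 1 library assumed to be like that of the other groups). The 3 iKO libraries also lay below the 3 flox libraries at ZT18 in kidney, at 52.0, 46.1 and 32.0 CPM in iKO and 55.4, 56.2 and 84.9 in flox, with a difference of -0.59 (SE 0.32, adjusted p = 0.395). In WAT they stood at 51.6, 9.72 and 76.2 CPM in iKO and 94.9, 87.2 and 179.9 in flox, with a difference of -1.40 (SE 0.87, adjusted p = 0.986). At this time 9.1% of all genes had their iKO libraries below their flox libraries in kidney and 1.65% in WAT. Of the 15048 genes tested in all 3 tissues, 11 (0.0731%) had iKO below flox in each tissue. Gene and time were picked for this count because they separate in each tissue in these same data. The share is therefore a description and no measure of how unusual Bhlhe40 is. Samples of the same genotype, time and number may share a source across tissues, which the labels do not state. High Xist fell on the same numbers, iKO ZT18 1 and iKO ZT22 3, in all 3 tissues. The 3 tissues are therefore not taken as independent. Over 36 numbers the deviations of Bhlhe40 from the group means correlated at r = 0.17 between liver and kidney and at r = 0.00 between liver and WAT.

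The averaged difference of Bhlhe40 was -0.18 in kidney (SE 0.13, adjusted p = 0.737) and -0.42 in WAT (SE 0.36, adjusted p = 1). In WAT at ZT2 it stood at 20.2, 60.7 and 11.4 CPM in iKO and 85.5, 146 and 39.7 in flox, lower in iKO in each same-numbered pair. This difference was -1.56 (adjusted p = 1), and -1.71 (adjusted p = 0.8) in a fit of ZT2 alone with the replicate number as a block, chosen after seeing the data. Kidney was also the tissue in which its rhythm was called, with an amplitude of 0.60 in iKO (SE 0.13, peak at 10.3 h, adjusted p = 0.0233) and of 0.55 in flox (SE 0.13, peak at 10.6 h, adjusted p = 0.0319). Leaving out 1 library kept the iKO call in 34 of 36 fits and the flox call in 28, and the flox call was lost with time as a factor (adjusted p = 0.0598). Liver amplitudes of 0.12 in iKO (SE 0.23) and 0.41 in flox (SE 0.23) were not called (adjusted p = 0.968 and 0.541). The kidney peak lay 3.56 h after that of Dbp in iKO (SE 1.01) and 3.92 h after it in flox (SE 1.05).

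Bhlhe41 (DEC2), the partner repressor of Bhlhe40, was scarce in liver and kidney. Raw counts per liver library ran from 1 to 78 with a median of 11.5, and per kidney library from 15 to 118 with a median of 32.5, against 90 to 3521 in WAT with a median of 459.5, so liver values carry the largest counting error here. In liver at ZT6 it had 1.31, 0.551 and 0.948 CPM in iKO and 2.07, 6.54 and 5.23 in flox. The groups did not overlap, as those of 2.42% of all genes did not in that direction, and the difference was -2.30 (SE 0.80, unadjusted p = 0.0102, adjusted p = 0.979). The averaged liver difference was -0.91 (SE 0.36, unadjusted p = 0.0171, adjusted p = 0.126), with 12 of 18 iKO libraries below the flox mean of their time. Of all 16582 genes tested in liver, 4079 had an unadjusted p under 0.05 for the averaged difference. Liver Bhlhe41 swung widely in both genotypes, with an amplitude of 1.72 in iKO (SE 0.39, peak at 3.93 h, adjusted p = 0.136) and of 1.83 in flox (SE 0.39, peak at 5.46 h, adjusted p = 0.0276). The flox call was lost without flox ZT6 2 (adjusted p = 0.0989), ZT6 3 (0.0625), ZT14 2 (0.0554) or ZT18 2 (0.0792).

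In kidney Bhlhe41 separated the genotypes at 4 of 6 times without a called difference. At ZT2 it had 1.58, 1.74 and 1.998 CPM in iKO and 3.46, 2.52 and 2.92 in flox, and at ZT10 2.23, 1.77 and 1.67 in iKO and 3.54, 2.71 and 2.92 in flox. At ZT22 it had 0.917, 0.885 and 0.997 CPM in iKO and 1.81, 1.06 and 1.51 in flox. At ZT18 the order was the other way, with 2.30, 1.93 and 1.86 in iKO and 1.85, 1.35 and 1.34 in flox. The share of all genes in the same position was 5.5% below at ZT2, 7.96% below at ZT10, 5.54% below at ZT22 and 8.84% above at ZT18. The averaged kidney difference was -0.37 (SE 0.15, unadjusted p = 0.0231, adjusted p = 0.422). The kidney amplitude was 0.30 in iKO (SE 0.16, adjusted p = 0.449) and 0.71 in flox (SE 0.16, peak at 6.18 h, adjusted p = 0.022). The flox call was lost without flox ZT6 3 (adjusted p = 0.0938), and the difference of rhythm itself was not called (amplitude difference -0.42, 95% interval -0.89 to 0.05, adjusted p = 1).

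WAT Bhlhe41 varied more between libraries than over time or genotype. It ran from 4.04 to 167 CPM in iKO (median 14.6) and from 10.4 to 125 in flox (median 24.7), and at ZT10 alone it had 139.9, 11.5 and 141 in iKO and 17.4, 15.4 and 125 in flox. Across the 36 WAT libraries it correlated with Bhlhe40 (r = 0.71) and with the marker means of adipocytes (r = -0.55), interferon genes (r = -0.50), hepatocytes (r = -0.47) and kidney tubules (r = 0.47). Tubule markers were scarce in WAT, at -3.20 to 0.85 log2 CPM against 9.10 to 10.59 in kidney, so their r does not show tubule tissue. The part of tissue composition in these levels was not tested. In liver Bhlhe40 and Bhlhe41 correlated at r = 0.00 over 36 libraries, and in kidney at 0.39. The averaged WAT difference was -0.04 (SE 0.47, 95% interval -1.002 to 0.93), too wide to tell a change of up to a factor of 2 in either direction, and its sign turned in 13 of 36 fits that left out 1 library.

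Across the 6 genes and 3 tissues, 14 of 18 averaged differences were below 0 and 4 above, the 4 being Nfil3 in each tissue and Hlf in liver, and 1 was called. Without the 11 libraries Dbp and Tef in liver and Hlf in kidney were above 0 and Hlf in liver below 0, so the tally of signs is a description of all libraries only. In kidney 0 of 6 were called, beside 29 of 17630 genes (0.164%), and 1 had an unadjusted p under 0.05, as had 1662 of all genes. In WAT 0 of 6 were called in edgeR, beside 0 of 21402 genes (0%), and 2 of 6 had an unadjusted p under 0.05, as had 805 of all genes, while DESeq2 called 25 genes in WAT and 0 of the 6. At single times 0 of 36 tests per tissue were called in edgeR and 2 per tissue had an unadjusted p under 0.05. Among all genes, those under 0.05 at a single time ran from 570 (ZT22) to 3293 (ZT14) of 16582 in liver. They ran from 513 (ZT10) to 2495 (ZT18) of 17630 in kidney and from 221 (ZT22) to 1241 (ZT10) of 21402 in WAT. DESeq2 called 1 of the 36 tests in liver, Bhlhe40 at ZT18. Among all genes, 2 were called in kidney at ZT22 (0.0113%), and 0 at every time and tissue other than this and liver ZT18. Each of the 3 tissues had 36 combinations of gene and time. Over the 3 tissues the genotypes did not overlap in 15 of them, 12 with iKO below and 3 with iKO above. These include WAT Dbp at ZT14, with 9.93, 12.5 and 15.1 CPM in iKO and 22.9, 15.5 and 47.4 in flox, as 2.45% of all genes. For the 15, the share of all genes in the same position ran from 1.65% (WAT ZT18, below) to 11.2% (liver ZT10, above). Both directions were common at some times, with 11.2% above and 10.4% below at liver ZT10. At kidney ZT18 they were 8.84% and 9.1%. No share pooled over times and tissues was computed, so neither the 15 nor their direction is taken as an excess over all genes. The joint test of whether the genotype difference varied over the day called 0 of 6 genes and 0% of all genes in each tissue, with a lowest adjusted p of 0.76 in liver, 0.66 in kidney and 1 in WAT for the 6, of which 0 had an unadjusted p under 0.05. For this test DESeq2 called 43 genes in liver and 55 in kidney, with 0 of the 6 among them in either.

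**Figure D4:**
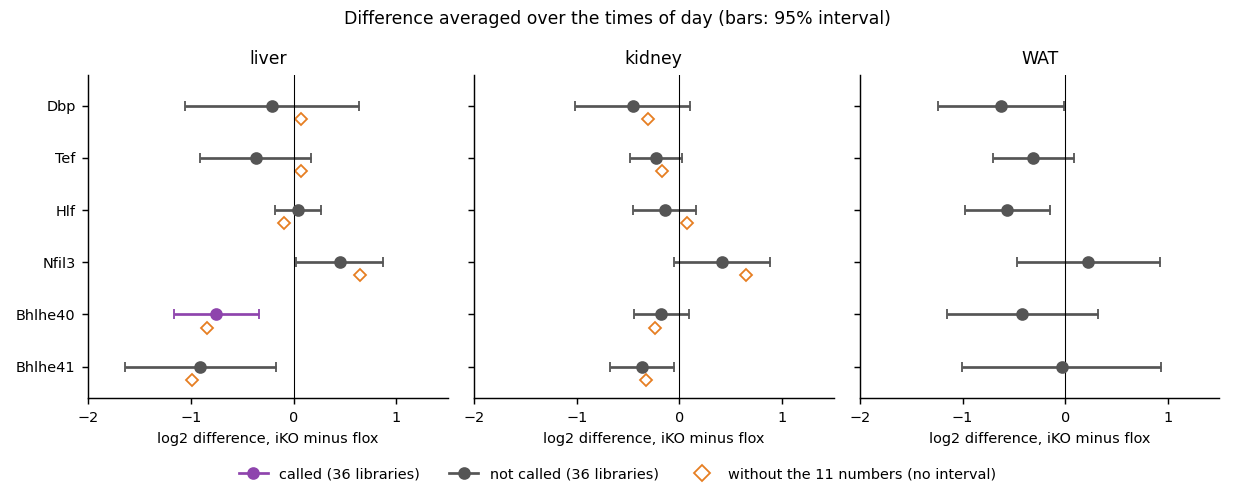
Difference between genotypes averaged over the times of day (log2, iKO minus flox) for each gene in liver, kidney and WAT, with 95% intervals from the fit of 36 libraries, and diamonds for the fit without the 11 libraries (liver and kidney, no ZT22). Liver Bhlhe40 at -0.75 is the called one, and liver Nfil3 moves to 0.64 in the fit without the 11, in which it was called.

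Rhythm was called for 5 of 18 gene and tissue pairs in iKO and for 7 of 18 in flox. In iKO these were Dbp in liver and Dbp, Tef, Nfil3 and Bhlhe40 in kidney. In flox they were Dbp and Bhlhe41 in liver and the 5 genes other than Hlf in kidney. Among iKO libraries the set of 11 goes with time, as it holds none of ZT2 or ZT10 and every number of ZT22. Rhythm in iKO and membership of that set therefore cannot be fully told apart in the fit of all libraries. With time as a factor kidney called 5 genes in iKO, Hlf being the one gained, and 4 in flox, with Hlf gained and Nfil3 and Bhlhe40 lost. In both genotypes that fit also called more of all kidney genes than the cosine did, by the counts in the last paragraph. These calls are therefore not read as particular to the 6. With the cosine, 0.0844% of all genes were called in iKO liver and 0.772% in flox liver. In kidney the cosine called 4.22% in iKO and 5.07% in flox, and in WAT 0% in either genotype. No change of rhythm between genotypes was called for any of the 6 or for any other gene, with a lowest adjusted p of 0.836 in liver and 1 in kidney and WAT for the 6, and 0 of the 6 had an unadjusted p under 0.05. DESeq2 called 3 genes for it in liver and 0 of the 6. Peaks in iKO minus flox differed by -0.91 h for liver Dbp (SE 0.86), by -1.54 h for liver Tef (SE 1.21) and by -0.03 h for kidney Dbp (SE 0.77). The amplitude difference of liver Dbp was 0.07 with a 95% interval of -1.32 to 1.47. Without the 11 libraries 0 of the 6 genes were called in either iKO tissue and 5 each in flox liver and flox kidney. That fit drops 9 iKO and 2 flox libraries of a tissue. It has no iKO library at ZT22 and only number 3 of iKO at ZT6, ZT14 and ZT18. Its counts for iKO and flox are therefore not comparable. Between flox tissues, 0 of 18 rhythm differences were called, beside 0.0263% of all genes for liver minus kidney, 0.465% for liver minus WAT and 0.0263% for kidney minus WAT. The lowest was Bhlhe41 for liver minus WAT (adjusted p = 0.0603 in edgeR, 0.0193 in DESeq2).

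**Figure D5:**
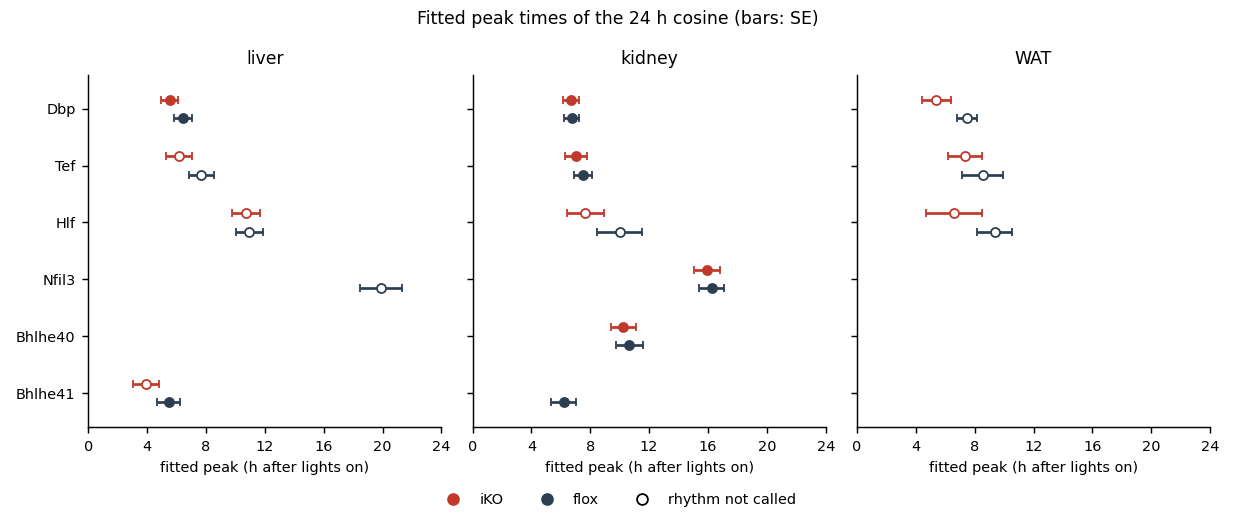
Fitted peak time (hours after lights on) of each gene in liver, kidney and WAT, with the iKO point above the flox point, bars for the SE and open points where the rhythm was not called. Only peaks with an amplitude of at least 2 SE are drawn. Kidney Dbp and Tef lie between 6.69 and 7.49 h, kidney Bhlhe40 at 10.3 and 10.6 h and kidney Nfil3 at 15.9 and 16.2 h.

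The genes whose levels ran most like each of the 6 were found by the mean over tissues of Pearson's r of log2 CPM over 36 libraries, among 13015 genes tested in all 3 tissues, as a description. Dbp was closest to Tef (0.83), Per3 (0.83) and Nr1d2 (0.82) and farthest from Arntl (-0.80). Tef was closest to Per3 (0.84), Dbp (0.83) and Per2 (0.74). Nfil3 had Arntl as its closest gene (0.71), then Pim1 (0.67) and Cdkn1a (0.63), and Nr1d2, which encodes REV-ERB beta, a repressor of both Arntl and Nfil3, as its farthest (-0.71). Hlf was closest to Ak4 (0.72), Rbm47 (0.71) and Suox (0.71), and Bhlhe40 to Sbk1 (0.73), Celsr1 (0.68) and Pgpep1 (0.67), none of which is a core clock gene. Bhlhe41 had the weakest closest genes, Zbtb20 (0.57), Gab1 (0.56) and Mia3 (0.56).

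Genes upstream and downstream were counted from 3 lists made with results of these data known. Of 14 other clock genes, 13 were tested in liver, where 0 were called for the averaged difference (median -0.17, against 0.00 over all genes), beside the 2.64% of all genes. Per2, a clock repressor, was at -0.86 (SE 0.27, adjusted p = 0.0785), Cry1, another, at 0.62 (SE 0.21, adjusted p = 0.0853) and Nr1d1 at -0.34 (SE 0.21, adjusted p = 0.306). DESeq2 called Per2 (adjusted p = 0.0263) and Cry1 (adjusted p = 0.0329) in liver. Without the 11 libraries they were at -0.85 and 0.36, not called in edgeR (adjusted p = 0.183 and 0.33), and Nr1d1 turned to 0.24 (adjusted p = 0.717). In kidney 1 of 14 rose, Npas2, a partner of BMAL1 (1.49, SE 0.28, adjusted p = 0.0251, and 1.87 without the 11 libraries, adjusted p = 0.0237), beside 0.164% of all genes. Cry1 was at 0.94 (SE 0.26, adjusted p = 0.145, and 0.0213 in DESeq2), and the list's median was 0.03. In WAT 0 of 14 were called, with Cry1 at 0.66 (SE 0.20, adjusted p = 1). The rhythm of the clock genes was called for 3 of 13 in iKO liver and 6 of 13 in flox liver, and for 7 of 14 in iKO kidney and 9 of 14 in flox kidney.

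Of 19 genes linked to PAR bZIP factors in mouse liver, all tested in liver, 3 rose in iKO and 0 fell (median 0.30, against 0.00 over all genes), beside 1.09% of all genes higher and 1.56% lower. These were Cyp4a14 (2.95, SE 0.51, adjusted p = 0.00685) and Cyp4a10 (1.78, SE 0.46, adjusted p = 0.0377), which hydroxylate fatty acids at their end and have near-identical neighbours that may share reads, and Lpl, the lipoprotein lipase (1.46, SE 0.29, adjusted p = 0.00995). Cyp4a14 (4.37, adjusted p = 0.00347) and Cyp4a10 (3.05, adjusted p = 0.000792) were also called without the 11 libraries, and Lpl was not (1.17, adjusted p = 0.0538). In kidney 0 of 13 tested and in WAT 0 of 12 tested were called, with medians of 0.16 in each. Alas1, the rate-limiting enzyme of heme synthesis, had a called rhythm in iKO liver (adjusted p = 0.0117) and in flox liver (adjusted p = 0.0441), and it was the only gene of this list with one in liver. In kidney Pdxk, which makes the active form of vitamin B6, was called in iKO (adjusted p = 0.02) and in flox (adjusted p = 0.00791), and Por, the electron donor of cytochrome P450 enzymes, in iKO (adjusted p = 0.041). Among 10 tested relatives of these factors (C/EBP and HES families) 2 rose and 1 fell in iKO liver (median 0.09). Cebpb, a bZIP activator of acute and metabolic liver genes, rose by 0.89 (SE 0.18, adjusted p = 0.0107), Hes1, a Notch-driven repressor, rose by 0.48 (SE 0.13, adjusted p = 0.0468), and Hes6 fell by 1.05 (SE 0.23, adjusted p = 0.0173). The calls of Cebpb (0.48, adjusted p = 0.0506) and Hes1 (0.39, adjusted p = 0.174) were lost without the 11 libraries and that of Hes6 was kept (-0.70, adjusted p = 0.00811). The median of the macrophage marker mean was 5.52 log2 CPM in iKO livers and 4.002 in flox livers, and its part in these differences was not tested beyond that fit. In kidney and WAT 0 of these 10 were called for the averaged difference, and in iKO kidney Cebpg had a called rhythm (adjusted p = 0.0493).

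Deviations from the group mean were also compared between tissues, since a number can carry the same deviation in several tissues. Over 36 numbers Dbp deviated together in liver and kidney (r = 0.69) and Nfil3 in liver and WAT (r = 0.66) and in liver and kidney (r = 0.55), while Hlf (0.29) and Bhlhe40 (0.17) did so less in liver and kidney. These correlations are descriptions, and the numbers share depth and the set of 11.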

How the data were processed

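Gene counts per library, as deposited by the authors, were used with the deposited gene length (the authors' other column used here). Per the labels, RNA was extracted with Trizol, and libraries were made with a NEBNext Ultra kit and sequenced with 150 base reads. The submitters' processing notes name HISAT2 2.0.4, featureCounts 1.5.0-p3, DESeq2 1.16.1 and GRCm38 (mm10), without roles. Of the genes, 1492 had no symbol. Coordinates come from GENCODE M21 and RefSeq, and not from the count table. Of 52083 gene ids of the count table that GENCODE M21 holds, 1494 had the same start and end in both. For each of the 6 genes the deposited start differs from the one printed, while the length of the locus is the same.

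Each tissue was fitted in edgeR 4.0.16 (R 4.3.3) over 12 groups of 3 libraries, after filterByExpr and TMM scaling, with quasi-likelihood tests and Benjamini-Hochberg adjustment over 16582 genes in liver, 17630 in kidney and 21402 in WAT. Rhythm was a 24 h cosine per genotype, and 1 joint fit over the whole series compared tissues. Levels of log2 CPM used a prior count of 2. Libraries of a group varied most in WAT (common biological coefficient of variation 0.785), then liver (0.514) and kidney (0.302). No 2 libraries of a group agreed within sampling noise (lowest chi-square per degree of freedom 10.55). Tests were tried on simulated data. Alternatives were DESeq2 1.42.0, its size factors, no filter, a replicate block and left-out libraries. The genes named are the 6, their closest genes by correlation, and called or leading genes of the lists. Members and lists were chosen with earlier results of these data known.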

Additional observations from a re-analysis of the deposited data

How the results depend on the processing

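None of the 6 genes' differences that was called before or after a change of setting turned sign. Under settings other than leaving out 1 library, 37 values that were not called did, 18 of them in the fit without the 11 libraries. The 1787 values compared there include called ones and tests without a sign, so no share is given. Without the 11 libraries the averaged liver difference was 0.0695 for Dbp, 0.0681 for Tef and -0.0977 for Hlf, and the kidney one 0.0699 for Hlf. Arntl turned to 0.0448 and Nr1d1 to 0.237 in liver. The averaged WAT difference of Bhlhe41 ran from -0.4332 to 0.234 with 1 library left out. With 1 replicate number left out the flox level difference of Tef between liver and kidney ran from -0.2427 to 0.0402, and between kidney and WAT that of Dbp from -0.0186 to 0.4406 (-0.0326 with the replicate block) and that of Bhlhe40 from -0.1957 to 0.3029 (-0.0623 with DESeq2's size factors, -0.0622 with DESeq2). Of 234 results, 226 kept their call with DESeq2, 234 with its size factors and 229 without the filter. In liver the count of genes called for the averaged difference was 1, but 0 without the filter, 0 without iKO ZT6 2 and 2 without the 11 libraries, and 0 to 2 with 1 library left out. At single times in liver it was 0, but 1 with DESeq2 and 1 without the 11 (Bhlhe40 at ZT18, with 1 iKO liver left), and 0 to 1 with 1 library left out. In kidney at single times it was 0 to 1 with 1 library left out. For the iKO liver rhythm it was 1, but 4 with DESeq2, 3 with time as a factor, and 0 without the filter, with iKO alone, without the 2 Xist libraries or without the 11, and 0 to 1 with 1 library left out. For the flox liver rhythm it was 2, but 4 with DESeq2, 1 with flox alone and 5 without the 11, and 0 to 4 with 1 library left out. It was 0 without flox ZT18 2 (Dbp adjusted p = 0.0514) and 4 without flox ZT6 1. For the iKO kidney rhythm it was 4, but 1 with iKO alone, 1 without the Xist libraries and 0 without the 11, and 2 to 4 with 1 library left out. With time as a factor it was 5. For the flox kidney rhythm it was 5, and 4 with time as a factor and 3 to 5 with 1 library left out. For the flox WAT rhythm it was 0, but 1 with DESeq2 and 1 without the filter, and 0 to 1 with 1 library left out. For tissue differences of rhythm it was 0, but 1 with DESeq2 and 1 with flox libraries alone. The cause of these changes was not tested. The fits without iKO ZT6 2 and without the Xist libraries were chosen after seeing the data, and ZT22 gave no value without the 11 because no iKO library is left. The 11 hold 9 iKO and 2 flox numbers, so the fit without them has fewer libraries for iKO rhythms than for flox rhythms.

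In no tissue did every same-numbered pair of iKO and flox deviate together: over 54 pairs the correlation of deviations ran from -0.656 to 0.853 (median 0.046), and 21 were over 0.1. At WAT ZT2 (0.263, 0.77 and 0.853) and WAT ZT14 (0.122, 0.177 and 0.288) all 3 were, and a fit of each of these times alone with the replicate block, chosen after seeing the data, called 0 of the 6 genes. With the replicate block the iKO liver rhythm count was 0, the count of tissue differences of rhythm was 1, and 231 of 234 results kept their call.

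Counts over all genes moved more. The averaged difference called 438 genes in liver, against 1609 with DESeq2, 218 without the filter, 796 with the block, 159 without the Xist libraries and 1199 without the 11. In kidney it called 29, against 203 with DESeq2, 19 without iKO ZT6 2, 17 without the Xist libraries and 77 without the 11. The iKO liver rhythm called 14, against 213 with DESeq2, 1916 with time as a factor and 0 with iKO alone, and flox liver 128, against 476, 682 and 73. The iKO kidney rhythm called 744, against 1579 with DESeq2, 7058 with time as a factor and 149 with iKO alone, and flox kidney 894, against 1722, 2185 and 1627. Liver ZT18 called 6, against 1389 with DESeq2. Depth limits liver Bhlhe41, with a median of 11.5 reads per library.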
